A study of Mus musculus with 18 samples.

Results

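The deletion Del(i9-13) of the mouse HoxB cluster was followed from embryonic day 9.5 (E9.5) to E10.5 by setting its effect on RNA levels at E10.5 against its effect at E9.5. The quantity read was a difference of differences on the log2 scale: the deletion effect (Del(i9-13) minus wild type) at E10.5 minus the deletion effect at E9.5. It used 12 of the 18 libraries of the study, in 4 groups of 3: homozygous Del(i9-13) at E10.5, wild type at E10.5, homozygous Del(i9-13) at E9.5 and wild type at E9.5. The wild type embryos were littermates of the mutants, per the labels, and all embryos had the head removed. A further 6 libraries, at E10.5, were homozygous for Del(i9-13):Hoxb13hd or for Hoxb13hd. They stayed outside the difference and are given beside it as the hd pair. The sources used here do not say what hd stands for.

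The E10.5 libraries were ribo-depleted and the E9.5 libraries poly(A)-enriched, per the labels' protocols. Levels were therefore not compared between stages, and library type and stage cannot be told apart in any part of the difference that a kit would alter unequally in the 2 genotypes. Del(i9-13) is read here as a deletion between Hoxb9 and Hoxb13, from its name and from the counts of the genes in that interval.

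Hox genes encode homeodomain transcription factors that are switched on one after another along each cluster and give axial levels their identity. Group 13 genes come last, and Hoxb13 lies apart from the rest of HoxB, beyond a long interval. In the mouse tail bud, a late pool of progenitors extends the body axis and group 13 genes are linked to the end of that process.

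Each gene was placed in a class from 3 tests in a single edgeR quasi-likelihood fit, each with Benjamini-Hochberg adjustment across the 17670 genes tested and a threshold of 0.05. The tests were the deletion effect at E10.5, the deletion effect at E9.5 and the stage difference between them. An effect persisted if it passed at both stages in the same direction and the stage difference did not pass. It faded if it passed at E9.5 and the stage difference passed towards a smaller effect at E10.5, and it appeared if the reverse held. A gene called at 1 stage whose stage difference did not pass was undecided, since a call at 1 stage alone does not show that the stages differ.

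The deletion effect persisted for 4 genes, faded for 3, appeared for 5 and was undecided for 74. The persisting genes were Hoxb13, which was higher in Del(i9-13), and Hoxb9, Gm53 and Rbpj, which were lower. The fading genes were Rhbdl3, Insig1 and Gm16551, all lower at E9.5, and the 5 appearing genes were all pseudogenes. No gene was called in opposite directions at the 2 stages (0 genes in the edgeR fit). The stage difference passed for 8 genes (0.0453% of those tested), all with a positive value, and at an unadjusted p under 0.05 for 1212 genes (6.86%). The E10.5 effect passed for 23 genes (0.13%), 15 higher (0.0849%) and 8 lower (0.0453%) in Del(i9-13). The E9.5 effect passed for 67 (0.379%), 9 higher (0.0509%) and 58 lower (0.328%). The split of directions moved with the scaling: under RLE scaling 15 were higher and 16 lower at E10.5, and 16 higher and 50 lower at E9.5. Under DESeq2 92 were higher and 154 lower at E10.5, and 83 higher and 204 lower at E9.5. DESeq2 called 88 stage differences, and edgeR called 0 when protein-coding genes alone were tested.

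**Figure D1:**
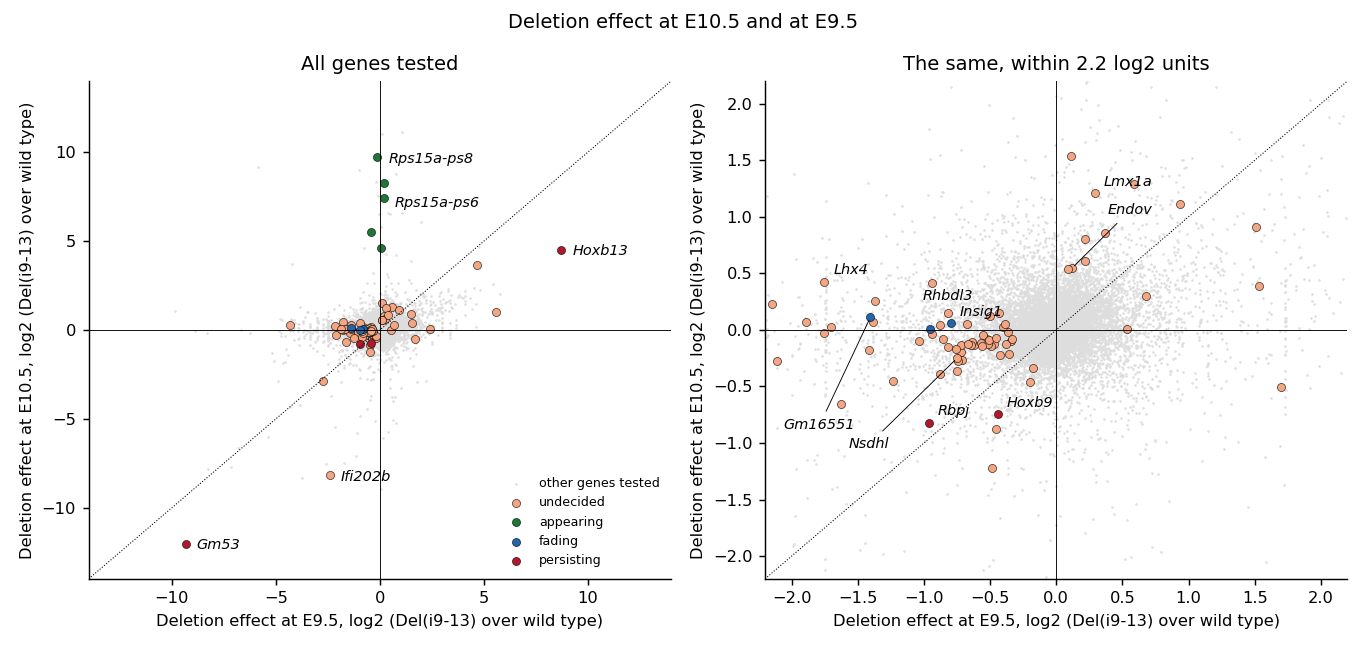
The deletion effect at E10.5 (vertical axis, log2) is plotted against that at E9.5 (horizontal axis, log2), 1 point for each of the 17670 genes tested, with the left panel showing all of them and the right panel the centre. Points on the dotted line have equal effects at both stages, and the 3 fading genes lie near 0 on the vertical axis at −0.80 to −1.40 on the horizontal one.

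Total counts were 22.2 to 24.2 M in E10.5 Del(i9-13), 21.9 to 23.7 M in E10.5 wild type, 29.8 to 34.6 M in E9.5 Del(i9-13) and 29.8 to 35.9 M in E9.5 wild type. Replicates were set against each other by a chi-square test of their counts, and the statistic over its degrees of freedom ran from 9.97 to 50.8, so no 2 libraries were counted as 1. Whether each library holds an embryo or a pool is not stated, and p-values measure only the spread between these libraries. E10.5 Del(i9-13) replicate 1 stood furthest from its group (50.8 and 34.6 against the other 2, which differed from each other by 10.3), and without it the E10.5 effect passed for 413 genes. The level of a gene is given as CPM, its read count scaled to a common library size. Xist was at 545 CPM or more in 5 of the 12 libraries and at 1.44 CPM or less in the other 7, which included all 3 E9.5 Del(i9-13) libraries. With Xist as a covariate 49 genes passed at E9.5, 40 of them among the 67, and 7 for the stage difference, 4 of them among the 8. Insig1, Gm16551, Npm3-ps1 and Gm6728 did not pass for the stage difference in that fit, and Hoxb13 did not at E10.5 nor Hoxb9 at E9.5. As a check of the label "headless", the forebrain genes Otx2 and Six3 had 0 counts in the 6 E10.5 libraries and at most 0.158 and 0.144 CPM at E9.5. Emx2, Lhx2 and En1, which trunk tissues also express, were at 0.662 to 28.5 CPM.

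Hoxb13 (ENSMUSG00000049604, chr11:96194316-96197447, mm10) was higher in every Del(i9-13) library at both stages. It was at 10.8, 5.84 and 12 CPM in E10.5 Del(i9-13), against 1.12, 0.126 and 0.0418 CPM in E10.5 wild type. The levels at E9.5 were 38.6, 43.5 and 45.3 CPM in Del(i9-13), against 0.115, 0.0342 and 0.135 CPM in wild type. The groups did not overlap at either stage, and 1 wild type library, E10.5 replicate 1, held 25 of the 29 Hoxb13 counts of its group. The effect was log2 4.51 (SE 0.62, adjusted p = 0.0297) at E10.5 and 8.72 (SE 0.72, adjusted p = 0.000921) at E9.5. As a ratio of summed counts, Del(i9-13) over wild type, it was 23.3 (exact 95% interval 16.1 to 35.1) at E10.5 and 441 (232 to 965) at E9.5. These intervals cover counting error only.

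The stage difference of Hoxb13 was −4.22 (95% interval −6.87 to −1.56) and did not pass after adjustment (adjusted p = 0.442 in edgeR). It was −2.01 without E10.5 wild type replicate 1, so its size depends on that library. The call at E10.5 was lost without 7 of the 12 libraries in turn (adjusted p up to 0.13), and that at E9.5 was kept without any of them. Between the hd groups Hoxb13 was at 11.2, 11.9 and 9.78 CPM in Del(i9-13):Hoxb13hd, against 0, 0.0467 and 0.104 CPM in Hoxb13hd (log2 7.67, adjusted p = 7.98e-06). All 3 Hoxb13hd libraries lay below E10.5 wild type replicate 1.

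Gm53 (ENSMUSG00000078706, chr11:96251105-96264868), a long noncoding gene inside the interval, was at or near 0 in Del(i9-13) at both stages. It had 0 counts in all 3 E10.5 Del(i9-13) libraries, against 521, 441 and 371 counts in E10.5 wild type. At E9.5 it had 0, 3 and 0 counts in Del(i9-13), against 472, 827 and 860 in wild type. Del(i9-13) was at least 451-fold lower at E10.5, taking a floor of 3 counts for the summed group. At E9.5 the ratio was 0.00137 (exact 95% interval 0.000283 to 0.00402). Both effects passed (adjusted p = 0.00202 and 0.000788 in edgeR). With groups at or near 0 the size of a stage difference cannot be read (interval −8.52 to 3.14).

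Mir196a-1 (chr11:96265164-96265265) is the microRNA gene of the same interval. Its mature product miR-196a-5p is known to pair with Hoxb8 messenger RNA. The sequence is shown because this copy lies between Hoxb9 and Hoxb13, and the capitals mark the seed, bases 2 to 8 (RefSeq, GRCm38.p6, chr11:96265187-96265208, plus strand).
miR-196a-5p: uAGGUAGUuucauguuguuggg

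Mir196a-1 had 2, 0 and 1 counts in E10.5 Del(i9-13), against 7, 8 and 9 in E10.5 wild type. At E9.5 it had 4, 9 and 3 counts in Del(i9-13), against 48, 36 and 25 in wild type. All Del(i9-13) libraries were below all wild type libraries at E9.5, and the same held at E10.5. Some counts remained in Del(i9-13) at both stages, and whether this copy is deleted was not tested. The ratio was 0.123 (exact 95% interval 0.0237 to 0.406) at E10.5 and 0.145 (0.08 to 0.246) at E9.5. The E10.5 effect did not pass (log2 −2.90, adjusted p = 0.177) and the E9.5 effect did (log2 −2.73, adjusted p = 0.0178), with a stage difference of −0.16 (95% interval −1.50 to 1.17). The E9.5 call was lost without 4 of the 12 libraries in turn (adjusted p up to 0.106). Libraries of this kind hold microRNA precursors and not the mature form. Hoxb8 (chr11:96281905-96285315) did not pass at E10.5 (log2 0.09) or at E9.5 (0.01).

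Hoxb9 (ENSMUSG00000020875, chr11:96271457-96276595), the HoxB gene at the other edge of the interval, was lower in Del(i9-13) at both stages. It was at 59.4, 49.9 and 51.8 CPM in E10.5 Del(i9-13), against 89.7, 98.6 and 82.1 CPM in E10.5 wild type. E9.5 libraries held it at 188, 191 and 178 CPM in Del(i9-13), against 255, 270 and 231 CPM in wild type. The groups did not overlap at either stage. The effect was log2 −0.75 (SE 0.09, adjusted p = 0.00335) at E10.5 and −0.44 (SE 0.09, adjusted p = 0.0497) at E9.5. The stage difference of −0.31 (95% interval −0.57 to −0.04, adjusted p = 0.647) did not pass. The E10.5 call was kept without any library, whereas that at E9.5 was lost without 10 of the 12 in turn (adjusted p up to 0.191) and in 9 of 13 other settings, RLE scaling among them. In the hd pair Hoxb9 was lower by a like amount, at 72.6, 69.7 and 65.8 CPM in Del(i9-13):Hoxb13hd, against 94.7, 124 and 122 CPM in Hoxb13hd (log2 −0.71, adjusted p = 0.0104).

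**Figure D2:**
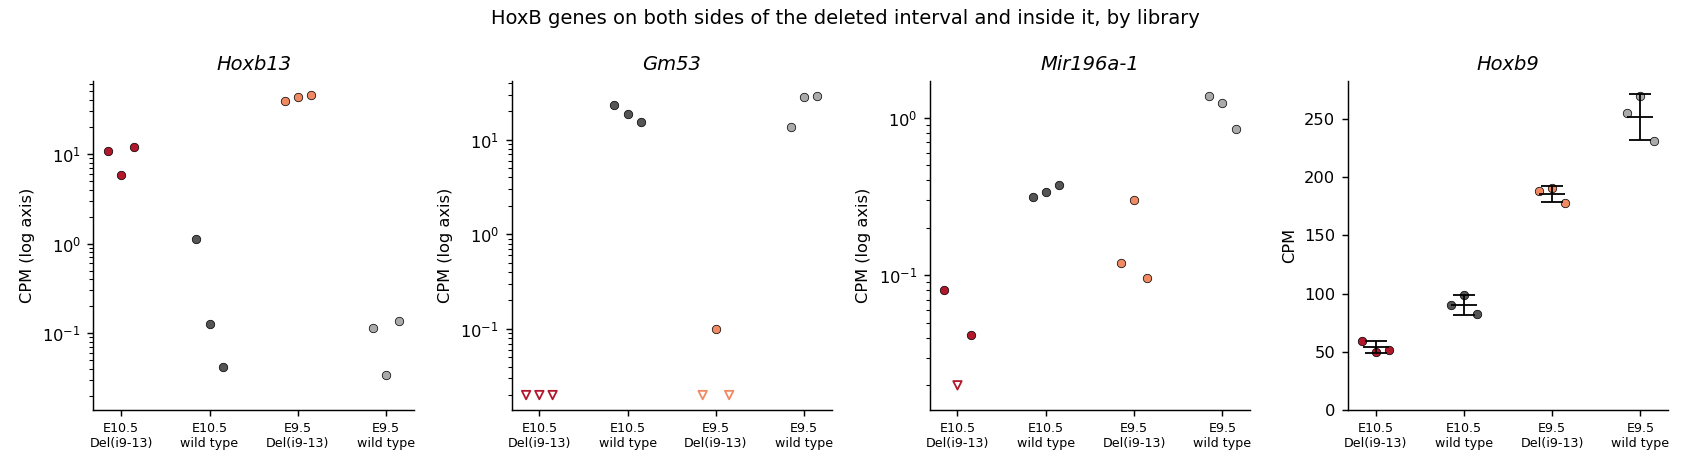
CPM are shown for each library, with a log axis for Hoxb13, Gm53 and Mir196a-1 and a linear axis from 0 for Hoxb9, where bars give the mean and SD of 3 libraries. Open triangles at the bottom stand for 0 counts. In each panel the Del(i9-13) libraries lie wholly on 1 side of the wild type libraries of the same stage.

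Of the 11 genes of the HoxB cluster tested, 2 (Hoxb13 and Hoxb9) were called at each stage. Over all genes 0.13% were called at E10.5 and 0.379% at E9.5. For the stage difference 0 of the 11 were called and 4 were at an unadjusted p under 0.05 (6.86% of all genes). Hoxb7 (chr11:96286623-96290162) had opposite signs at the 2 stages. It was at 17.3, 22.7 and 20.3 CPM in E10.5 Del(i9-13), against 15.7, 14.8 and 15.7 CPM in E10.5 wild type (log2 0.38). The E9.5 values were 17, 16 and 14.3 CPM in Del(i9-13), against 20.1, 18.1 and 17.9 CPM in wild type (log2 −0.25). The groups did not overlap at either stage, but neither effect passed, and the stage difference of 0.63 (SE 0.15, adjusted p = 0.268) did not either. Hoxb1 had a stage difference of −0.43 (adjusted p = 0.557), and Hoxb2 to Hoxb6, Hoxb8 and Hoxb5os lay between −0.25 and 0.08. The other group 13 genes had stage differences of −0.12 (Hoxa13), −0.38 (Hoxc13) and 0.02 (Hoxd13), with wide intervals (−2.01 to 1.77, −2.44 to 1.68 and −0.94 to 0.98). Of 16 Hox genes of groups 9 to 13 outside HoxB, 0 were called at either stage or for the difference (edgeR). For the difference 4 were at an unadjusted p under 0.05, against 6.86% of all genes.

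Ttll6 (chr11:96133786-96165451), a tubulin polyglutamylase gene on the far side of Hoxb13, was at 2.45, 2.15 and 2.47 CPM in E10.5 Del(i9-13), against 0.806, 0.462 and 0.836 CPM in E10.5 wild type (log2 1.74, SE 0.62, adjusted p = 0.466). Its E9.5 levels were 0.712, 0.536 and 0.925 CPM in Del(i9-13), against 0.0287, 1.16 and 0.606 CPM in wild type (log2 0.31). The E10.5 groups were apart and the E9.5 groups overlapped, and the stage difference of 1.44 (95% interval −0.53 to 3.40, adjusted p = 0.854) did not pass. Of 19 neighbours of Hoxb13 on chromosome 11 that were tested, 0 were called at either stage or for the difference (edgeR, 0 at an unadjusted p under 0.05 for the difference).

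Rbpj (chr5:53466152-53657362) encodes the DNA-binding partner through which Notch receptors act on their target genes, and was the persisting gene outside HoxB. It was at 29, 22.4 and 25.3 CPM in E10.5 Del(i9-13), against 44.5, 45.4 and 45.6 CPM in E10.5 wild type. The levels at E9.5 were 32.1, 28.5 and 31.1 CPM in Del(i9-13), against 53.4, 73.9 and 51.5 CPM in wild type. All Del(i9-13) libraries lay below all wild type libraries of the same stage. The effect was log2 −0.82 (SE 0.13, adjusted p = 0.0262) at E10.5 and −0.96 (SE 0.13, adjusted p = 0.00334) at E9.5, with a stage difference of 0.14 (95% interval −0.24 to 0.53). The E10.5 call was lost without 5 of the 12 libraries in turn (adjusted p up to 0.12), and that at E9.5 was kept without any.

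Rbpj was not called in the hd pair. There it was at 49.8, 45.4 and 52.5 CPM in Del(i9-13):Hoxb13hd, against 30.5, 45.9 and 46.9 CPM in Hoxb13hd (log2 0.26, adjusted p = 0.434). Of the 4 persisting genes, 3 (Hoxb13, Hoxb9 and Gm53) were called in the same direction between the hd groups, where 317 of 16349 genes passed (1.94%), 210 higher (1.28%) and 107 lower (0.654%).

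The fading class held 2 protein-coding genes and a noncoding one. Rhbdl3 (chr11:80300912-80355955), of the rhomboid family of membrane proteases, was at 32.2, 38.3 and 33.8 CPM in E10.5 Del(i9-13), against 36.5, 32.5 and 34.6 CPM in E10.5 wild type. E9.5 libraries held it at 9.1, 9.54 and 8 CPM in Del(i9-13), against 17.3, 18.3 and 16 CPM in wild type. The E10.5 groups overlapped and the E9.5 groups were wide apart. The effect was log2 0.01 (SE 0.10) at E10.5 and −0.95 (SE 0.10, adjusted p = 0.000788) at E9.5, and the stage difference was 0.96 (SE 0.14, adjusted p = 0.0295 in edgeR).

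Insig1 (ENSMUSG00000045294, chr5:28071363-28078662) encodes a membrane protein that, when sterols are plentiful, holds back the processing of the SREBP factors of lipid synthesis. It was at 84.1, 96.4 and 83.6 CPM in E10.5 Del(i9-13), against 88.2, 91.3 and 73.4 CPM in E10.5 wild type. The E9.5 values were 41.6, 38.5 and 36.7 CPM in Del(i9-13), against 67.4, 73.5 and 61.8 CPM in wild type. Again the groups overlapped at E10.5 and not at E9.5. The effect was log2 0.06 (SE 0.10) at E10.5 and −0.80 (SE 0.10, adjusted p = 0.00155) at E9.5, with a stage difference of 0.86 (SE 0.14, adjusted p = 0.0479).

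Gm16551 (chr9:74847983-74860134), an uncharacterised noncoding gene, was at 9.87, 10.9 and 11 CPM in E10.5 Del(i9-13), against 10, 8.78 and 10.6 CPM in E10.5 wild type (log2 0.11). Its E9.5 levels were 2.4, 2.51 and 1.69 CPM in Del(i9-13), against 5.52, 6.73 and 5.26 CPM in wild type (log2 −1.40, SE 0.16, adjusted p = 0.00139). Its stage difference was 1.52 (SE 0.22, adjusted p = 0.0338).

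For the 3 fading genes the E9.5 calls were kept without any of the 12 libraries, and the stage difference kept its sign throughout. The stage difference itself was lost without 9 (Rhbdl3), 10 (Insig1) and 9 (Gm16551) of the 12 libraries in turn, with adjusted p up to 0.124, 0.167 and 0.138. It was also lost in 7 of 14, 9 of 14 and 6 of 13 other settings. For Rhbdl3 and Insig1 these included the test of protein-coding genes alone, for Insig1 and Gm16551 RLE scaling and the Xist covariate, and for all 3 limma on log2 FPKM. In the hd pair the 3 genes had log2 values of 0.26, −0.19 and 0.40, none of which passed (adjusted p = 0.407, 0.249 and 0.193).

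**Figure D3:**
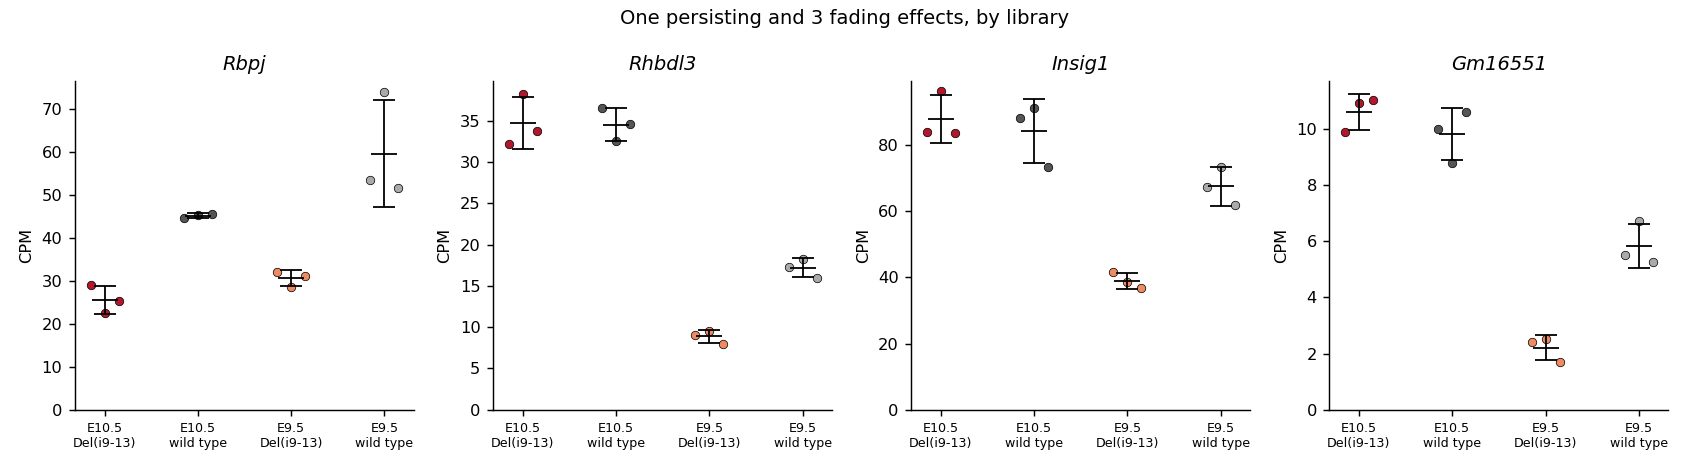
CPM of Rbpj and the 3 fading genes in each library, on linear axes from 0, with the mean and SD of 3 libraries. For Rbpj the Del(i9-13) libraries are the lower ones at both stages. For Rhbdl3, Insig1 and Gm16551 they overlap wild type at E10.5 and are lower at E9.5.

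Insig1 belongs to a group of 25 sterol synthesis and uptake genes. At E10.5 1 of them was called lower in Del(i9-13), against 0.0453% of all genes. The median log2 effect was −0.13, against 0.01 over all genes tested. At E9.5 16 were called lower and 0 higher, against 0.328% and 0.0509% of all genes. The median was −0.56, against −0.01 over all genes. A negative value was found for 23 of the 25 at E10.5 and for all 25 at E9.5, against 8475 and 9553 of all 17670 genes. The stage difference was positive for 23 of 25 (55.4% over all genes), with a median of 0.45 (0.03 over all genes). It was at an unadjusted p under 0.05 for 22 (6.86% over all genes). It passed for Insig1 alone. The list was drawn up with the E9.5 result known, so its E9.5 count is a description. The same holds for its stage difference counts and median, which use the same E9.5 values.

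Nsdhl (chrX:72918557-72958514), a dehydrogenase that removes methyl groups from sterol intermediates, was at 40.4, 36.1 and 36.5 CPM in E10.5 Del(i9-13), against 42.7, 45.7 and 45.8 CPM in E10.5 wild type (log2 −0.25, adjusted p = 0.206). The levels at E9.5 were 45.3, 44.3 and 43.3 CPM in Del(i9-13), against 73.6, 74.5 and 75.1 CPM in wild type (log2 −0.75, adjusted p = 0.000302). Its groups did not overlap at either stage, and its stage difference was 0.50 (SE 0.09, adjusted p = 0.092).

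Lss (chr10:76531607-76555479), the lanosterol synthase, was at 83.1, 75.9 and 73.4 CPM in E10.5 Del(i9-13), against 92.9, 95.9 and 91.8 CPM in E10.5 wild type (log2 −0.27). E9.5 libraries held it at 63.4, 60.2 and 58.4 CPM in Del(i9-13), against 110, 99.5 and 94.5 CPM in wild type (log2 −0.74, adjusted p = 0.000462). Both stages were again without overlap, with a stage difference of 0.47 (adjusted p = 0.186). The others with a call at E9.5 had E10.5 effects of −0.26 (Idi1, the isoprenoid isomerase) to 0.06 (Insig1) and E9.5 effects of −0.82 (Tm7sf2, a sterol reductase) to −0.39 (Pmvk, a mevalonate pathway kinase). Cyp51, the lanosterol demethylase, had −0.20 and −0.72, and Mvd, the last enzyme of the mevalonate pathway, −0.05 and −0.55.

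**Figure D4:**
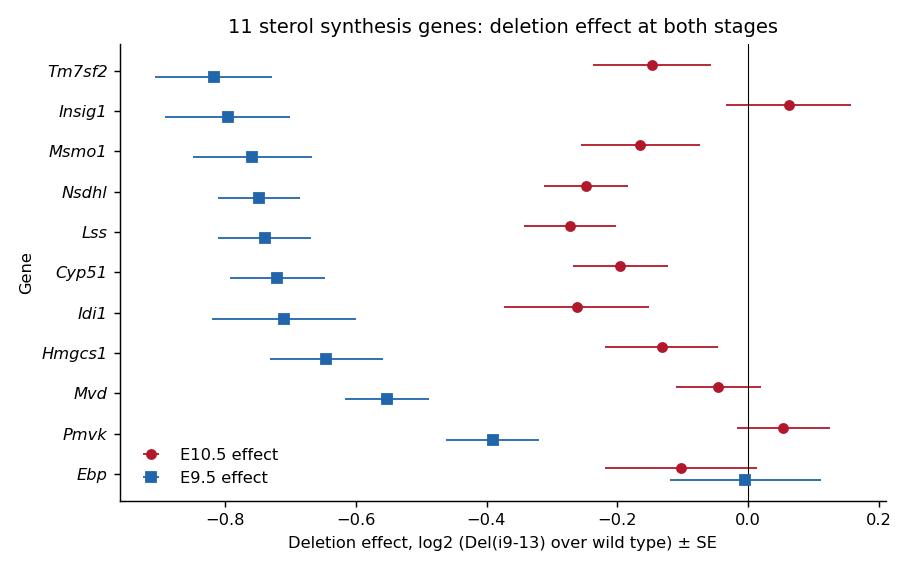
The deletion effect (log2, Del(i9-13) over wild type) of the 11 sterol genes named in the text is shown with its SE, at E10.5 as circles and at E9.5 as squares. The E10.5 values run from −0.27 (Lss) to 0.06 (Insig1), and the E9.5 values from −0.82 (Tm7sf2) to near 0 (Ebp).

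Without E10.5 Del(i9-13) replicate 1, 4 sterol genes were called lower at E10.5 and the persisting class held 12 genes, among them Nsdhl, Lss, Scd1, Scd2 and Acly, while the fading class held 6, among them Insig1, Cyp51 and Msmo1. Without any other library at most 1 sterol gene was called at E10.5. With Xist as a covariate 15 sterol genes were called lower at E9.5. In the hd pair the median of the 25 was 0.04, 7 were negative and 0 were called (edgeR).

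Fatty acid synthesis genes were also called at E9.5. Of 12 tested, 0 were called at E10.5 and 5 were called lower at E9.5, against 0.328% of all genes called lower at E9.5. Their medians were −0.14 at E10.5 and −0.35 at E9.5 (0.01 and −0.01 over all genes). The stage difference was positive for 11 (55.4% over all genes), with a median of 0.20 (0.03 over all genes) and 0 called. Scd1, the stearoyl-CoA desaturase, was at 109, 110 and 104 CPM in E10.5 Del(i9-13), against 129, 142 and 144 CPM in E10.5 wild type (log2 −0.36, adjusted p = 0.065). Its E9.5 levels were 115, 106 and 109 CPM in Del(i9-13), against 199, 179 and 176 CPM in wild type (log2 −0.75, adjusted p = 0.000412). Its groups did not overlap at either stage. Fads1 and Fads2, the desaturases of polyunsaturated fatty acids, and the elongase Elovl6 had E10.5 effects of −0.09, −0.13 and −0.22 and E9.5 effects of −0.34, −0.38 and −0.43. Their E9.5 calls were lost without 10, 9 and 4 of the 12 libraries in turn, whereas those of Nsdhl, Lss, Cyp51, Tm7sf2, Mvd and Scd1 were kept without any.

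Promoters of the sterol genes were searched for letters of a sterol regulatory element, CACCCCA, and of an E-box form, CACGTGA, on both strands, from 250 bases before to 50 bases after the start (RefSeq, GRCm38.p6). Of the 25 genes 17 had a promoter in the table. CACCCCA was in 3 of these (17.6%), against 8.66% of all 27025 genes with a promoter, CACGTGA in 3 (17.6% against 4.29%), and either in 6 (35.3% against 12.5%). The core of CACGTGA reads alike on both strands, and no sterol gene promoter held both motifs. A match is a description of letters and not a site. The 250 bases before the start are printed for Insig1, whose stage difference passed, and for Hmgcs1, an enzyme at the head of the pathway, with matches in capitals. Insig1 lies at chr5:28071162-28071411 and Hmgcs1 at chr13:119690101-119690350, both on the plus strand.
Insig1: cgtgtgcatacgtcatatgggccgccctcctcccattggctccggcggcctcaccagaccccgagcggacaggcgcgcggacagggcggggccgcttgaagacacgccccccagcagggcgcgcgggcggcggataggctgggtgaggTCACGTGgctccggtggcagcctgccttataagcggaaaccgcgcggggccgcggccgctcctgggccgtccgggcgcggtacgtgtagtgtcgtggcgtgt
Hmgcs1: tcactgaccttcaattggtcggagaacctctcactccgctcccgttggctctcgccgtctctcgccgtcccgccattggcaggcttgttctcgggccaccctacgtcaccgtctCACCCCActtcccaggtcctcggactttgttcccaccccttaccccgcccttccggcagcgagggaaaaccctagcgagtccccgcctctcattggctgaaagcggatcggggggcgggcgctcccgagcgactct

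The 102nd base before the Insig1 start opens its match, which reads CACGTGA on the minus strand, and the 136th base before the Hmgcs1 start opens that of Hmgcs1. Hmgcs1 had a deletion effect of log2 −0.13 at E10.5 and −0.64 at E9.5 (adjusted p = 0.00368), and a stage difference of 0.51 (adjusted p = 0.257).

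The appearing class held Rps15a-ps5, Rps15a-ps6, Rps15a-ps8, Npm3-ps1 and Gm6728, all processed pseudogenes. Rps15a-ps6 (chr11:6172644-6173036) was at 28.3, 42.2 and 41.8 CPM in E10.5 Del(i9-13), against 0.224, 0.294 and 0.125 CPM in E10.5 wild type (log2 7.42, adjusted p = 1.76e-08). The levels at E9.5 were 11, 8.54 and 9.34 CPM in Del(i9-13), against 8.16, 7.04 and 10.3 CPM in wild type (log2 0.18). The stage difference was 7.24 (SE 0.35, adjusted p = 3.08e-07). The wild type libraries were the low ones among those at E10.5, where the hd groups were at 32.7, 35.4 and 26.8 CPM (Del(i9-13):Hoxb13hd) and 30.5, 36.1 and 17.5 CPM (Hoxb13hd).

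The other 4 had stage differences of 4.59 (Rps15a-ps5), 9.83 (Rps15a-ps8), 5.91 (Npm3-ps1) and 8.05 (Gm6728), with adjusted p of 0.00148, 0.00148, 0.0295 and 0.0452. Rps15a-ps8 (chr4:53791070-53791456) was at 13.4, 18 and 15.8 CPM in E10.5 Del(i9-13), against 0.0448, 0 and 0 CPM in E10.5 wild type. E9.5 libraries held it at 24.1, 12.3 and 23.5 CPM in Del(i9-13), against 25.8, 12.7 and 26.8 CPM in wild type. Gm6728 (chr6:136486122-136487186) had 0 counts in all 3 E10.5 wild type libraries and 0.418 to 0.653 CPM in Hoxb13hd.

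None of these 5 passed in the hd pair (log2 −1.88 to 0.20, adjusted p 0.242 or more). With the hd groups in place of Del(i9-13) and wild type at E10.5, their stage differences were between −1.46 and 0.31. The stage difference was lost without 6 (Npm3-ps1) and 8 (Gm6728) of the 12 libraries in turn, and for the 3 Rps15a pseudogenes it was kept without any. The parent gene Rps15a did not pass at either stage, at 393, 559 and 508 CPM in E10.5 Del(i9-13), against 580, 597 and 512 CPM in E10.5 wild type (log2 −0.21, adjusted p = 0.707). Counting can split reads between a pseudogene and its parent, and the sources used here do not say how multiply aligned reads were treated, so these values are uncertain.

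**Figure D5:**
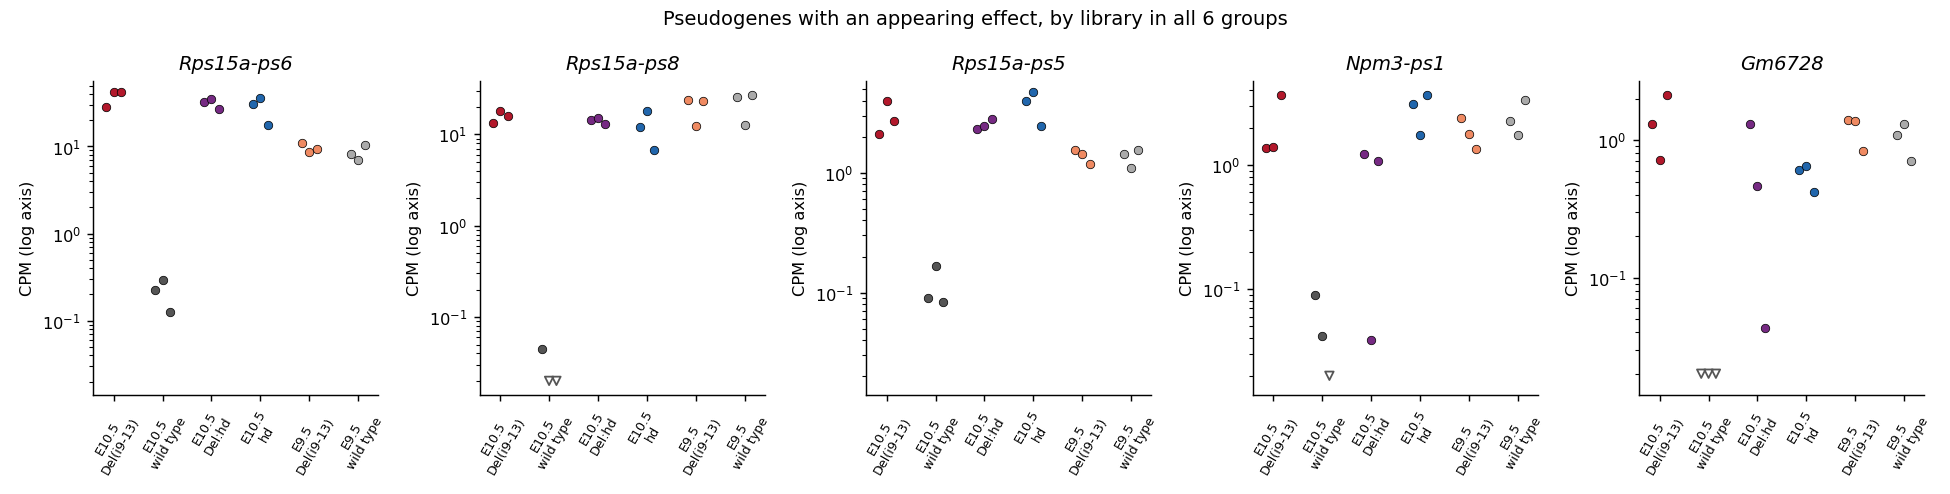
CPM of the 5 appearing pseudogenes in each library of all 6 groups, on log axes, with open triangles for 0 counts (Del:hd stands for Del(i9-13):Hoxb13hd and hd for Hoxb13hd). Among the E10.5 libraries the 3 wild type ones are the lowest for Rps15a-ps6, Rps15a-ps8, Rps15a-ps5 and Gm6728, and for Npm3-ps1 1 Del(i9-13):Hoxb13hd library lies among them.

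The undecided class held 14 genes called at E10.5 and 60 called at E9.5. None of the 14 was shown to differ between stages. Endov, an endonuclease that acts on inosine in RNA, was at 34.7, 36 and 34.2 CPM in E10.5 Del(i9-13), against 25, 22.3 and 24.6 CPM in E10.5 wild type (log2 0.54, adjusted p = 0.0076). The E9.5 values were 46.1, 45.3 and 41.2 CPM in Del(i9-13), against 40.6, 41.1 and 40.5 CPM in wild type (log2 0.12). It was higher without overlap at both stages, with a stage difference of 0.43 (SE 0.10, adjusted p = 0.257). Prkg2, a cyclic GMP-dependent kinase, had effects of 0.86 (adjusted p = 0.0133) at E10.5 and 0.37 at E9.5, again higher without overlap at both. Arrdc3, an arrestin-domain protein, had 0.61 (adjusted p = 0.0218) and 0.22, also without overlap.

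Aldh9a1 (chr1:167349991-167368532), an aldehyde dehydrogenase, had 0.80 (adjusted p = 0.0152) at E10.5 and 0.21 at E9.5. Lmx1a (chr1:167689237-167848741), a LIM homeodomain factor of the roof plate of the neural tube, was at 8.98, 11 and 6.81 CPM in E10.5 Del(i9-13), against 3.31, 4.79 and 3.47 CPM in E10.5 wild type (log2 1.21, adjusted p = 0.0262). At E9.5 its groups overlapped (log2 0.29). Tmco1 (chr1:167308378-167330785), near both genes, was called lower at E10.5 (log2 −1.22, adjusted p = 0.029 in edgeR). In the hd pair Aldh9a1, Lmx1a and Tmco1 had 0.21, 0.18 and −0.51, none called (adjusted p = 0.696, 0.847 and 0.571). Whether the effects on these neighbours are separate was not tested. Clk1, a kinase of splicing factors, was lower at E10.5 (−0.46, adjusted p = 0.0262) and at −0.19 at E9.5.

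Ifi202b, an interferon-induced gene, had 0 CPM in the 3 E10.5 Del(i9-13) libraries, against 2.33, 0.546 and 1.09 CPM in E10.5 wild type (adjusted p = 0.0262), and at most 0.135 CPM in any E9.5 library. H4f16, of the replication-dependent histone genes whose RNA mostly lacks a poly(A) tail, was at 489, 776 and 629 CPM in E10.5 Del(i9-13), against 218, 231 and 203 CPM in E10.5 wild type (log2 1.54, adjusted p = 0.0119). In the poly(A)-enriched E9.5 libraries it was at 0.505 CPM or less, and its stage difference is not read.

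In the hd pair, 5 of these 14 genes had the same direction as at E10.5, with 0 called so and 1, H4f16, called the other way (log2 −0.96, adjusted p = 0.00338). E10.5 calls of the 8 undecided genes given values above, Tmco1 aside, were lost without 2 (Endov) to 5 (Prkg2 and Ifi202b) of the 12 libraries in turn. Endov, Prkg2 and Clk1 had hd values of −0.08, −0.25 and 0.02.

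Of the 60 undecided genes called at E9.5, those outside the lipid lists included regulators of spinal neurons. Lhx4 (chr1:155698031-155751684), a LIM homeodomain factor of motor neurons and V2 interneurons, was at 11.2, 16.7 and 11.8 CPM in E10.5 Del(i9-13), against 7.44 to 11.6 CPM in E10.5 wild type (log2 0.43). Its E9.5 levels were 1.04, 0.737 and 0.606 CPM in Del(i9-13), against 3.25, 2.97 and 1.85 CPM in wild type (log2 −1.75, SE 0.28, adjusted p = 0.0142). The E10.5 groups overlapped and the E9.5 groups were apart. The stage difference of 2.18 (SE 0.37, 95% interval 1.39 to 2.97) did not pass (adjusted p = 0.0751). Lhx3, its close relative, had 0.25 at E10.5 and −1.37 at E9.5 (adjusted p = 0.0391). Cntn2, an axonal adhesion protein, had 0.07 and −1.38 (adjusted p = 0.0319), and Bcl11a, a zinc finger factor of neurons, −0.17 and −1.42 (adjusted p = 0.0459). The E9.5 calls of Lhx4, Lhx3, Cntn2 and Bcl11a were lost without 4, 8, 8 and 11 of the 12 libraries in turn.

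Over 32 genes of spinal cord neurons, 0 were called at E10.5, and 4 lower and 1 higher (Chl1, log2 1.51, adjusted p = 0.00331) at E9.5, where 0.328% of all genes were called lower and 0.0509% higher. Their median effect was 0.02 at E10.5 and −0.63 at E9.5. The median stage difference was 0.59, with 28 of 32 positive (55.4% of all genes) and 0 called (edgeR). It was at an unadjusted p under 0.05 for 14 (6.86% of all genes). In the hd pair the median was 0.58, with 6 called higher (1.28% of all genes), Bcl11a among them (log2 1.52, adjusted p = 0.0223). Summed over 4 neuronal markers, the level was 221 to 284 CPM in E10.5 Del(i9-13), against 185 to 289 CPM in E10.5 wild type, and 35.2 to 54.2 CPM in E9.5 Del(i9-13), against 68.7 to 83.6 CPM in E9.5 wild type. In whole tissue, fewer cells of a type and less RNA per cell cannot be told apart.

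Outside the lipid and neuron lists, Rprm, a target of p53 linked to arrest of the cell cycle, was at 8.06, 6.24 and 7.52 CPM in E10.5 Del(i9-13), against 11, 8.28 and 10.7 CPM in E10.5 wild type (log2 −0.45). The levels at E9.5 were 6.7, 7.23 and 5.61 CPM in Del(i9-13), against 14.8, 14.5 and 16.6 CPM in wild type (log2 −1.23, adjusted p = 0.00139). It was lower without overlap at both stages. Aacs, a ketone body enzyme that feeds lipid synthesis, had −0.14 and −0.62 (adjusted p = 0.00154).

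The size of the effect at the other stage compares libraries outside the contrast that chose the genes. Both contrasts came from a single fit that shares each gene's estimate of spread, so all libraries had a part in the calls. The E9.5 calls of Hoxb9, Fads1 and Bcl11a, for example, were lost when some E10.5 libraries were left out. Counts at an unadjusted p under 0.05 at the other stage, at E10.5 or E9.5, are therefore not independent of the choice of genes. An effect also tends to look larger at the stage that chose the gene. A smaller median at the other stage therefore does not by itself show fading. Of the 58 genes called lower at E9.5, 40 were negative at E10.5, 14 of them at an unadjusted p under 0.05, against 48% and 3.66% of all genes, and their median effect was −0.10 at E10.5 and −0.74 at E9.5. In the sterol and fatty acid lists the counts were 19 of 21 and 7. Outside those and the HoxB interval they were 18 of 34 and 4, with a median of −0.02 at E10.5. Of the 9 called higher at E9.5, 8 were positive at E10.5 and 4 at an unadjusted p under 0.05, against 52% and 4.27% of all genes.

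Of the 15 genes called higher at E10.5, 13 were positive at E9.5 and 5 at an unadjusted p under 0.05, and of the 8 called lower, 8 were negative and 7 at that p. Without the HoxB interval and the pseudogenes, 9 of 9 higher ones were positive at E9.5 and 6 of 6 lower ones negative, with 4 and 5 at an unadjusted p under 0.05. The background was 45.6% and 54.1% for direction, and 3.76% and 6.63% for that p. Over all genes tested the signs matched for 58.2%, and the correlation of the 2 effects across genes was 0.24 (Pearson; 0.34 over 9884 genes at a mean of 10 CPM or more). Genes are not independent replicates.

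Among groups of tissue markers, 27 tail bud genes, which mark the progenitors of the posterior axis, had a median effect of −0.18 at E10.5 and 0.36 at E9.5. Their stage difference was negative for 24 of 27 (median −0.47), with 1, Sall4, at an unadjusted p under 0.05 and 0 called in edgeR. Over all genes tested the median was 0.03, 55.4% were positive and 6.86% were at that p. T (brachyury) had −0.26 at E10.5 and 0.88 at E9.5, and Cdx2 −0.25 and 0.36. The 6 tail bud markers summed to 23.7 to 30.9 CPM in E10.5 Del(i9-13), against 15.2 to 43.9 CPM in E10.5 wild type, and to 143 to 149 CPM in E9.5 Del(i9-13), against 62.3 to 125 CPM in E9.5 wild type. In the hd pair the median was −0.63, with 25 of 27 negative and 10 called lower, against 8408 of 16301 negative and 0.654% called lower over all genes.

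All 25 genes of hypoxia and glycolysis had a negative stage difference (median −0.30, 0 called in edgeR), whereas 55.4% of all genes had a positive one. For 10 of the 25 it was at an unadjusted p under 0.05, against 6.86% of all genes. Their median effect was −0.13 at E10.5 and 0.18 at E9.5. Slc2a1, the glucose transporter, had −0.25 and 0.31. The 15 myotome genes had a median stage difference of 0.73, with 14 positive (55.4% of all genes) and 0 called. It was at an unadjusted p under 0.05 for 5, against 6.86% of all genes. Myog, a muscle regulator, had a stage difference of 1.36 (adjusted p = 0.441). Medians of liver bud genes were 1.23 at E10.5 and 2.90 at E9.5, and those of heart muscle genes −1.15 and −0.75, with 0 genes called at either stage in each list (edgeR, 0 at an unadjusted p under 0.05 for the difference).

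Liver bud and visceral endoderm markers ranged widely within groups, at a sum of 279 to 1250 CPM in E10.5 Del(i9-13), against 166 to 463 CPM in E10.5 wild type, and 88.7 to 834 CPM in E9.5 Del(i9-13), against 20.7 to 99.2 CPM in E9.5 wild type. The 8 heart markers summed to 68.5 to 244 CPM in E10.5 Del(i9-13), against 73.6 to 907 CPM in E10.5 wild type, and to 31.3 to 45.5 CPM in E9.5 Del(i9-13), against 44.9 to 109 CPM in E9.5 wild type. Their part in the stage differences was not tested.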

How the data were processed

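The authors deposited read counts, whole numbers, for 55141 Ensembl genes in 18 libraries, 12 of which entered the stage difference. The submitters' processing notes name cutadapt 1.18, STAR 2.7.10a and the build mm10. Kits were stranded, per the labels' protocols. How counting treated strand and multiple alignments is not stated in the sources used here, so paralogs, pseudogenes and overlapping genes are uncertain. FPKM of 55138 genes were deposited by the authors, from Cufflinks 2.2.1 per the same notes, and served as an alternative. Coordinates are those of the FPKM table, with 1 added to its starts, which then equalled GENCODE M21 for 51385 genes. That annotation gave gene types. All columns were assigned from sample titles (0 unused).

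The main test was edgeR 4.0.16 (in R 4.3.3): filterByExpr (minimum count 10, minimum total 15), TMM scaling and a robust quasi-likelihood fit of 4 group means (17670 genes, 8 residual degrees of freedom), tested on simulated data. CPM are counts scaled to the TMM-adjusted library size. Lack of overlap between groups describes 3 against 3 libraries and is no test. Genes chosen by a small p tend to show it, and its share over all genes is not given. A log2 value in parentheses is Del(i9-13) over wild type unless called a stage difference. The hd pair was fitted alone. Ratios of summed counts carry exact 95% intervals, with a floor of 3 counts.

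Genes were named by rule: HoxB genes, Gm53, Mir196a-1, Hoxa13, Hoxc13, Hoxd13 and Ttll6, up to 10 stage differences each way at a mean of at least 1 CPM, up to 8 genes of each class by smallest p, and up to 4 called members of each list by smallest p of the difference. Pseudogenes, symbols without a name of their own, sex-linked markers and chromosome Y were left out of the 2 middle steps. The 5 pseudogenes, Gm16551, the parent Rps15a, Tmco1, Xist, the head markers, the printed promoters and the list members given as examples beyond the rule were added after their values were seen. The genes, lists and tests were chosen with earlier results of these data known. A few genes that the rule names are not reported here.

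Alternatives were RLE scaling, other filters, DESeq2 1.42.0, limma 3.58.1 on log2 FPKM (pseudocounts 0.1 and 1), a fit of all 18 libraries, fits by stage, protein-coding genes alone, an Xist covariate, a replicate block, an absolute log2 value of at least 1 and leaving out each library. Taking the hd groups as the E10.5 side, and all alternatives for the hd pair, were added after the data were seen.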

Additional observations from a re-analysis of the deposited data

Results flagged for a closer look

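The deletion effect differed between stages, by the test of the difference itself, for 8 genes. Stage differences (E10.5 minus E9.5, log2) of 5 pseudogenes were 7.24 for Rps15a-ps6, 4.59 for Rps15a-ps5, 9.83 for Rps15a-ps8, 5.91 for Npm3-ps1 and 8.05 for Gm6728. In each the E10.5 wild type libraries were near 0 and the hd pair was not called. In Hoxb13hd, whose label names no deletion, Rps15a-ps6 was also far above E10.5 wild type. Whether the pseudogene values come from the deletion was not tested. Stage differences of the fading genes were 0.96 for Rhbdl3, 1.52 for Gm16551 and 0.86 for Insig1. All 8 passed edgeR's quasi-likelihood test at an adjusted p of 0.0479 or less, with n = 3 libraries in each of 4 groups.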

How the results depend on the processing

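The order of counts below is stage difference, E10.5 effect, E9.5 effect, persisting, fading, appearing, opposed, undecided, difference called with neither stage called (difference only), and hd pair, against 8, 23, 67, 4, 3, 5, 0, 74, 0 and 317; a setting is listed only for the counts it moved by over 1.5 times, and an unlisted count can hold different genes. RLE scaling gave 5 stage differences and 1 fading gene. No filter gave 15, 52, 107, 10 fading, 134 undecided and 1034 in the hd pair. DESeq2 gave 88, 246, 287, 22, 48, 30, 2, 405, 8 and 706. A fit of all 18 libraries gave 16, 69, 140, 8 persisting, 11 fading, 178 undecided and 1 difference only. Fits by stage, with the difference taken from the 2 fits, gave 167 and 55, 2 persisting, 32 fading, 25 appearing, 44 undecided and 110 difference only. The difference there was tested by a normal approximation, which passes genes more readily than an F test at 3 libraries per group. Protein-coding genes alone gave 0 stage differences, 0 fading and 0 appearing, with Rhbdl3 and Insig1 still tested (adjusted p = 0.143 and 0.170 in edgeR). An Xist covariate gave 2 persisting and 3 appearing. limma on log2(FPKM + 0.1) gave 2 stage differences, 1 fading and 1 appearing, without a filter 1, 2 persisting, 0 fading and 1 appearing, and on log2(FPKM + 1) 4 stage differences, 43 at E9.5 and 2 appearing. An absolute log2 value of at least 1 left 13 at E10.5, 23 at E9.5, 2 persisting, 1 fading and 26 undecided. With the hd groups as the E10.5 side, chosen after seeing the data, the counts were 415 and 308, 8 persisting, 78 fading, 148 appearing, 15 opposed, 173 undecided and 172 difference only. The cause was not tested.

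Leaving out each library in turn gave 3 to 24 stage differences, 8 to 413 calls at E10.5, 32 to 97 at E9.5, 1 to 12 persisting, 0 to 11 fading, 3 to 10 appearing, 0 to 2 opposed, 47 to 462 undecided, 0 to 1 difference only, and 77 to 1271 in the hd pair. The high values came without E9.5 wild type replicate 2 (24 stage differences), E9.5 wild type replicate 3 (20), E10.5 Del(i9-13) replicate 1 (16; 413 at E10.5) and Hoxb13hd replicate 1 (1271). The low ones came without E10.5 Del(i9-13) replicate 2 (8 at E10.5) and E9.5 Del(i9-13) replicate 3 (32 at E9.5). The stage difference of Hoxb13 ran from −4.80 to −2.01 and was called in fits by stage (−4.25, by the more lenient normal approximation) and on log2(FPKM + 1) (−2.17). Over the same omissions that of Gm53 ran from −3.23 to 0.304 and that of Rbpj from −0.0396 to 0.239.

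Deviations of same-numbered libraries correlated at −0.254, −0.313 and −0.179 at E10.5 and 0.137, 0.0802 and 0.211 at E9.5. Those of differently numbered libraries ran from −0.0897 to 0.364 at E10.5 and from −0.289 to 0.158 at E9.5. Pairing by replicate number was thus not seen at E10.5 and cannot be settled at E9.5. With a replicate block the counts were 4 stage differences, 15 at E10.5, 0 fading, 3 appearing, 1 opposed and 86 in the hd pair. The persisting class again held 4 genes, but only Gm53 was shared: Hoxb13 and Rbpj lost the E10.5 call and Hoxb9 the E9.5 call.

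Under the alternatives there were 1619 values, of single genes but also of list medians and shares of direction. Of these, 1255 were counted as the same. For a gene this means the same direction and side of the threshold, and for a median or share a shift within a set limit. A further 37 medians or shares moved beyond it. Of the gene values, 1 newly passed the threshold, 303 fell below it and 23 changed sign. Those were the stage differences of Gm53 (0.512 on log2(FPKM + 0.1) with and without a filter, 0.547 on log2(FPKM + 1), 0.304 without E9.5 Del(i9-13) replicate 2) and Rbpj (−0.052 with Xist, −0.0396 without E9.5 wild type replicate 2, −0.00875 without E10.5 Del(i9-13) replicate 1), neither of which passed in the first place. On unfiltered FPKM the stage difference and E10.5 effect were −0.403 and −0.0168 for Rps15a-ps5 and −0.155 and −0.158 for Npm3-ps1. With the hd groups they were −0.598 and −0.568, and −1.46 and −1.88. There the stage differences of Rps15a-ps6 (−0.0141) and Gm6728 (−0.117) also changed sign, as did the E10.5 effects of Rbpj (0.254), Endov (−0.0842), Prkg2 (−0.256), Ifi202b (1.96), Clk1 (0.0146) and H4f16 (−0.971). Depth limits Mir196a-1, Ifi202b and Gm6728, whose groups held few or 0 counts.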
